A study of Homo sapiens with 36 samples.

Results

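The catalytic subunits of the proteasome were examined as a group of 6 genes: the constitutive subunits PSMB5, PSMB6 and PSMB7, and the immunoproteasome subunits PSMB8, PSMB9 and PSMB10 that can take their places. They were picked by gene symbol, with no threshold on a measured value, though earlier results of these data were known. All 6 were found among the 58219 genes listed for RNA and among the 43582 genes listed for ribosome footprints.

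The cells were WiT49, a cell line from an anaplastic Wilms tumor, a childhood kidney cancer. They received 2 nM actinomycin D (actD), a DNA-intercalating antibiotic that can stop RNA polymerases, or the vehicle dimethyl sulfoxide (DMSO). How far transcription was stopped at this dose was not measured here. Exposure lasted 6 h, 72 h or 2 weeks, the last as 2 cycles of 7 days with 3 days of drug or vehicle followed by 4 days of plain medium. Total RNA and ribosome footprints, the fragments that translating ribosomes protect from nuclease, were each sequenced from 3 libraries per treatment and time, so that 12 groups held 36 libraries. The labels do not say that libraries came from separate cultures, so p-values measure only the spread between these libraries, and 1 cell line stands for the tumor. In the RNA set of 2 weeks each library's title contradicts its library name on the treatment. Here the library name decides, so the groups read "named actd" and "named dmso", and every 2-week RNA difference below changes sign if the titles are right.

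The proteasome degrades proteins tagged with ubiquitin, and its barrel-shaped core particle cuts them with 3 kinds of beta subunit. PSMB5 gives the chymotrypsin-like activity and is the main target of bortezomib, PSMB6 gives the caspase-like activity, and PSMB7 gives the trypsin-like activity. Interferon gamma induces PSMB8, PSMB9 and PSMB10, which replace PSMB5, PSMB6 and PSMB7 in newly built immunoproteasomes and change the peptides that are offered to MHC class I molecules. The series title joins proteasome inhibition with actD in this tumor, so the genes of the inhibited enzyme are of direct interest.

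Each subunit is made with a leading propeptide that is cut off so that a threonine becomes the first residue and the active nucleophile. The coding bases around that threonine are shown because they show how closely each pair is related. The windows of 60 bases come from GENCODE release 29 transcripts on GRCh38, are written 5′ to 3′ with T, and have the codon of the catalytic threonine in capitals.
PSMB5: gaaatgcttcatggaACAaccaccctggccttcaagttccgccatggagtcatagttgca
PSMB8: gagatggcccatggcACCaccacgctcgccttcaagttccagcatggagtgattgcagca
PSMB6: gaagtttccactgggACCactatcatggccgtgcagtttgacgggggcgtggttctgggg
PSMB9: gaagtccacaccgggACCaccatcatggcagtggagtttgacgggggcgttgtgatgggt
PSMB7: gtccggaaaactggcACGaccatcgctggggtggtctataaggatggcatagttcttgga
PSMB10: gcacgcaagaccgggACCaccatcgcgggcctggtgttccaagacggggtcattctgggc

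The catalytic threonine lies at codon 60 of PSMB5, 35 of PSMB6, 44 of PSMB7, 73 of PSMB8, 21 of PSMB9 and 40 of PSMB10, counted from the start codon. After the propeptide, PSMB5 and PSMB8 were identical at 68.1% of aligned residues, PSMB6 and PSMB9 at 59.5%, and PSMB7 and PSMB10 at 57.7%. The other 12 pairs among the 6 proteins reached 23.0% to 32.2%. At the level of DNA the coding sequences remained distinct, with a longest shared run of 22 bases for PSMB5 and PSMB8, 16 for PSMB6 and PSMB9, and 14 for PSMB7 and PSMB10.

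The genes lie at 5 places in the genome. On GRCh38 these are chr14:23016543-23035230 (PSMB5, minus strand), chr17:4796144-4798503 (PSMB6, plus strand), chr9:124353466-124415444 (PSMB7, minus strand) and chr16:67934502-67937087 (PSMB10, minus strand). PSMB8 (chr6:32840717-32844703, minus strand) and PSMB9 (chr6:32844136-32859585, plus strand) overlap each other in the MHC region, and the span of PSMB9 also holds TAP1. How the counting treated strand is not given in the sources used here, so reads of PSMB8, PSMB9, PSMB8-AS1 and TAP1 could not be told apart where they overlap. PSMB10 shares exons on the same strand with a readthrough gene, AC040162.1, which held 49 to 569 counts in the RNA libraries, and its own count is uncertain for that reason.

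RNA libraries held 40221994 to 69240041 counts and footprint libraries 152556 to 1281039, of which only 23134 to 283435 lay in protein-coding genes. Of 10 Wilms tumor and nephron progenitor markers 3 had a mean RNA level above 1 CPM, the count scaled by library size, at each time, among them IGF2 and WT1, while SIX2, PAX2 and CITED1 did not. None of 8 leukocyte markers reached 1 CPM. Summed over the 8, their level was 1.03 to 3.01 CPM in every library, with the arms overlapping at each time, and HLA-DRA was at 0 in every RNA library. RNA DMSO replicate 3 at 72 h stood apart in the immune genes described below, and in some other genes as well. Values without it are given where it turns a direction or moves a value by over 1.5 times. Because it was picked by its values in genes of these lists, a shift on leaving it out follows in part from that choice. In such bulk samples, fewer cells of a type and less RNA per cell cannot be told apart.

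Levels were compared between genes as CPM per kilobase of merged exons. The constitutive subunits were the abundant ones in WiT49: over the 18 RNA libraries PSMB5 ranged from 28.2 to 69.2 CPM per kilobase, PSMB6 from 30.5 to 70.3 and PSMB7 from 33.4 to 64.0. These ranges nearly coincide, and in each of the 6 groups the 3 genes overlapped their neighbours in the order of levels. PSMB10 followed with 3.02 to 8.44, PSMB8 with 1.16 to 3.84 and PSMB9 with 0.113 to 0.552 CPM per kilobase. In the DMSO arm at 6 h the step from PSMB6 to PSMB10 was 8.04-fold, from PSMB10 to PSMB8 2.70-fold and from PSMB8 to PSMB9 10.2-fold, each without overlap between libraries. That order held in all 6 RNA groups, and the one step below the constitutive genes at which libraries overlapped was from PSMB10 to PSMB8 in DMSO at 72 h. The 3 immunosubunits together made up 3.14% to 6.91% of the summed per-length level of the 6 genes (median 4.79%, n = 18 libraries).

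**Figure D1:**
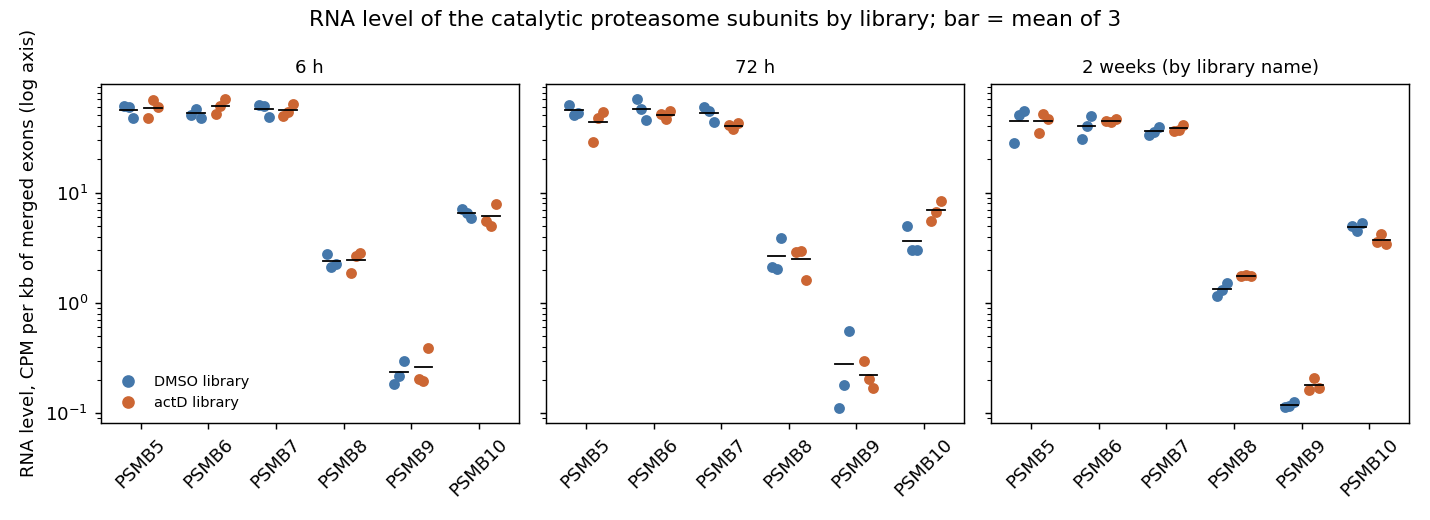
RNA level of each catalytic subunit in every library, in CPM per kilobase of merged exons on a log axis, with 1 panel per time; points are libraries and bars are means of 3. PSMB5, PSMB6 and PSMB7 sit together between 28.2 and 70.3, PSMB10 and PSMB8 lie lower, and PSMB9 is lowest in every panel at 0.113 to 0.552.

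The first comparison asked whether actD changed the RNA of these genes. After 6 h no difference stood out. PSMB5 measured 83.0, 122 and 105 CPM in the actD libraries and 108.2, 105.8 and 83.7 CPM in the DMSO libraries. PSMB6 measured 75.1, 87.3 and 102 CPM against 73.4, 83.3 and 69.3 CPM. The arms overlapped for both, and they overlapped for PSMB7, PSMB8, PSMB9 and PSMB10 as well. Fitted log2 differences, actD minus DMSO, lay between -0.08 for PSMB10 and 0.22 for PSMB6 (SE 0.19 and 0.14). With edgeR (quasi-likelihood fits, p-values adjusted after Benjamini and Hochberg) 0 of the 6 were called at an adjusted p under 0.05, beside 0% of all 22669 genes tested. None of the 6 had an unadjusted p under 0.05, DESeq2 called 0 of them, and among all genes 15.8% had arms that did not overlap.

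After 72 h the constitutive subunits had lower fitted values in actD, without a call. PSMB7, the trypsin-like subunit, measured 73.7, 66.9 and 76.3 CPM in actD and 106.5, 97.8 and 78.4 CPM in DMSO. All actD libraries were below all DMSO libraries, though DMSO replicate 3 was close to the actD range. The log2 difference was -0.38 (SE 0.19; edgeR adjusted p = 0.448). Without DMSO replicate 3 it was -0.50 (edgeR adjusted p = 0.228).

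PSMB5 measured 51.2, 83.8 and 95.6 CPM in actD and 110.5, 89.8 and 92.9 CPM in DMSO. One actD library was low and the arms overlapped (log2 difference -0.35, SE 0.26; edgeR adjusted p = 0.599). PSMB6 measured 74.1, 67.8 and 79.2 CPM against 102, 81.9 and 65.7 CPM, and again the arms overlapped (-0.17, SE 0.21; edgeR adjusted p = 0.751). That overlap came from DMSO replicate 3, without which the difference was -0.32 with every actD library below (edgeR adjusted p = 0.418).

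PSMB10, the immunosubunit that replaces PSMB7, had the opposite direction at 72 h. It held 527, 664 and 868 counts in the actD libraries and 345, 253 and 388 in the DMSO libraries, which is 10.3, 12.3 and 15.6 CPM against 9.21, 5.60 and 5.62 CPM. All 3 actD libraries were above all 3 DMSO libraries, with 1 DMSO library near the lowest actD library. The fitted level was 1.87-fold higher in actD (log2 difference 0.91, SE 0.29), with an unadjusted p of 0.0151 and an edgeR adjusted p of 0.293, so it was not called. Its rank by p was 1073 of 21195 genes. A single fit over all 3 time points, which pools the spread of 18 libraries, gave 0.93 with an edgeR adjusted p of 0.0314, and called 4.89% of 24803 genes at 72 h (1212 genes). Its adjusted p lay between 0.0314 and 0.653 over the alternatives run, and DESeq2 gave 0.113. With the counts of the readthrough gene AC040162.1 added, an alternative chosen after seeing the data, the difference was 0.74 (SE 0.24; edgeR adjusted p = 0.299), from 10.5, 9.22 and 7.29 CPM in DMSO to 12.9, 13.9 and 18.4 CPM in actD. In that sum too the arms did not overlap.

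At 72 h 0 of the 6 members were called, beside 0.00472% of all 21195 genes (1 gene), and PSMB10 was the 1 member with an unadjusted p under 0.05. The arms did not overlap for 2 of 6 members, beside 20.9% of all genes.

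PSMB8 and PSMB9 depended on 1 library at 72 h. PSMB8 measured 8.75, 8.82 and 4.88 CPM in actD and 6.41, 6.15 and 11.5 CPM in DMSO. PSMB9 measured 0.922, 0.629 and 0.522 CPM in actD, and 0.347, 0.553 and 1.69 CPM in DMSO. For both genes the highest of the 6 libraries was DMSO replicate 3, at 1.83 times the mean of the other 2 DMSO libraries for PSMB8 and 3.77 times for PSMB9. The log2 differences were -0.10 (SE 0.35) and -0.35 (SE 0.59) with that library and 0.25 (SE 0.31) and 0.60 (SE 0.41) without it, with edgeR adjusted p-values of 0.921, 0.824, 0.719 and 0.495 in that order.

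The same library was high in other genes of antigen presentation. It held the highest level among the 6 libraries for 7 of 12 genes of a list of MHC class I antigen processing and for 8 of 18 genes of a list of interferon signalling and response. The share of all genes that were highest in this library was not computed. Relative to the mean of DMSO replicates 1 and 2 this library had 2.03 times the level of B2M, the light chain of class I molecules, and 3.41 times that of HLA-B. TAP1, a peptide transporter subunit, was at 2.21 times and IRF1, an interferon-induced transcription factor, at 2.07 times that mean. PSMB10 did not follow, at 0.759 times. The library also differed outside the immune genes, with the proteasome regulatory subunit PSMD2 at 0.353 times and the segregase VCP at 0.359 times that mean. Other proteasome genes were near it, such as SEM1 at 1.04 times and PSMB1 at 1.02 times. PTPRC, a leukocyte marker, had 0.420 CPM in this library against 0.0801 and 0.111 CPM in the other DMSO libraries. The part of all these genes in the PSMB8 and PSMB9 values was not tested.

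**Figure D2:**
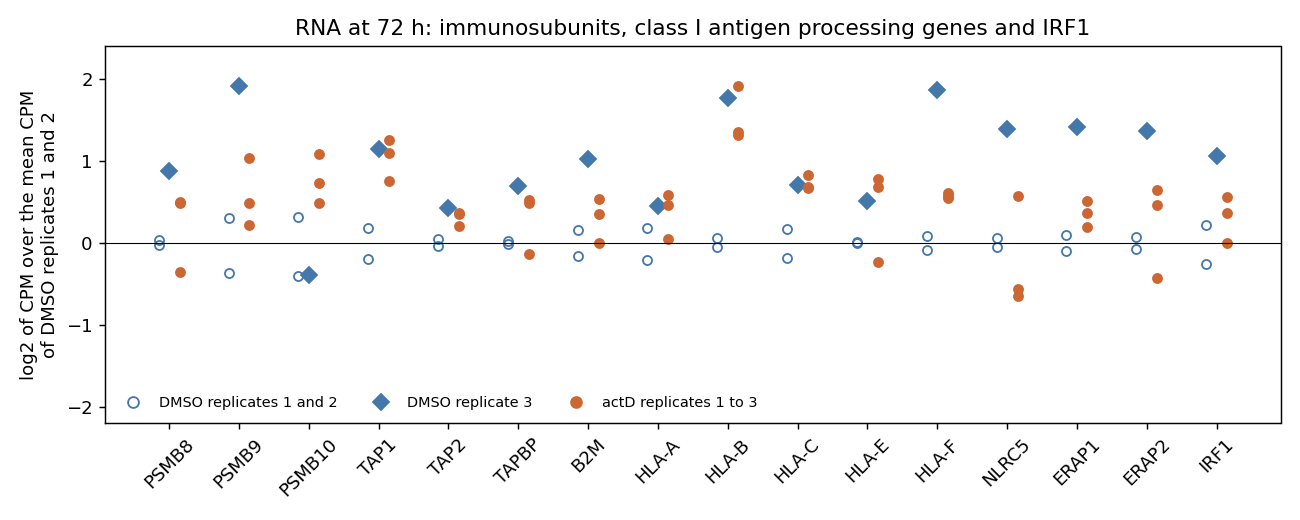
RNA at 72 h of the immunosubunits, the 12 class I antigen processing genes and IRF1, as log2 of each library's CPM over the mean CPM of DMSO replicates 1 and 2. The filled diamond, DMSO replicate 3, lies above both other DMSO libraries for PSMB8, PSMB9, TAP1, B2M and HLA-B, but not for PSMB10, while all actD libraries of PSMB10 lie above 0.

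In the 2-week RNA libraries PSMB8 and PSMB9 had higher fitted values in those named actd and PSMB10 a lower one, without a call. PSMB8 measured 5.24, 5.32 and 5.25 CPM in the libraries named actd and 3.49, 3.93 and 4.55 CPM in those named dmso. The arms did not overlap (log2 difference 0.40, SE 0.16; unadjusted p = 0.0393, edgeR adjusted p = 0.533). PSMB9 measured 0.501, 0.646 and 0.523 CPM against 0.349, 0.359 and 0.389 CPM, again without overlap (0.61, SE 0.36; edgeR adjusted p = 0.653). Its values rest on 19 to 37 counts a library, and in this table and the 6 h table small counts pile up at multiples of about 2.67, so that a fragment was worth more than 1 count.

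PSMB10 held 357, 450 and 277 counts in the libraries named actd and 526, 441 and 503 in those named dmso, or 6.63, 7.86 and 6.30 CPM against 9.18, 8.34 and 9.77 CPM. Every library named actd was below every library named dmso (log2 difference -0.39, SE 0.15; unadjusted p = 0.0296, edgeR adjusted p = 0.512). With the readthrough gene added, the difference shrank to -0.11 (SE 0.14; edgeR adjusted p = 0.842) and the arms overlapped, at 12.6, 14.2 and 11.4 CPM against 15.2, 13.3 and 12.6 CPM. The separation of the 2-week arms was thus not seen in the sum of both genes.

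The constitutive subunits overlapped between the 2-week arms, with log2 differences of -0.01 for PSMB5, 0.17 for PSMB6 and 0.08 for PSMB7 (SE 0.25, 0.17 and 0.11). In all, 0 of 6 members were called at 2 weeks by edgeR, beside 0% of 21137 genes, and DESeq2 called 0 of them. PSMB8 and PSMB10 had an unadjusted p under 0.05. The arms did not overlap for 3 of 6 members, all of them immunosubunits, beside 15.7% of all genes.

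**Figure D3:**
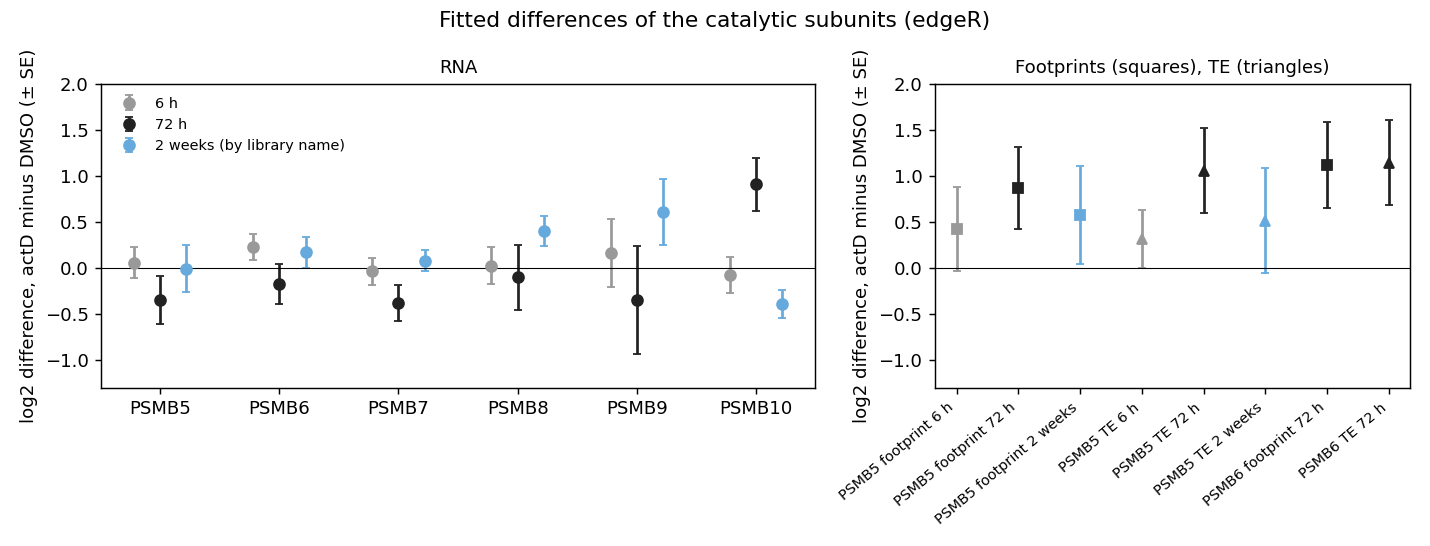
Fitted log2 differences, actD minus DMSO, with standard errors, for RNA at 3 times (left) and for the footprint and translational efficiency (TE) fits in which PSMB5 or PSMB6 passed the filter on low counts (right). PSMB6 passed it only at 72 h, through its actD libraries. In RNA the value of PSMB10 is 0.91 at 72 h and -0.39 at 2 weeks, and at 72 h the footprint values of PSMB5 and PSMB6 are 0.87 and 1.12; none of these passed an adjusted p of 0.05.

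The direction of each immunosubunit against its partner can be read as a ratio within a library, which needs no scaling between libraries. These ratios were fixed as descriptions with no test. Per kilobase, PSMB10 stood at 6.92% ± 1.41 of PSMB7 in DMSO and at 17.0% ± 3.17 in actD at 72 h (SD, n = 3 each). The DMSO libraries lay between 5.52% and 8.34% and the actD libraries between 13.5% and 19.7%, well apart. At 6 h the ratio was 11.4% ± 0.641 in DMSO and 10.97% ± 1.498 in actD, with overlap. At 2 weeks it was 13.6% ± 1.07 in the libraries named dmso and 9.87% ± 1.58 in those named actd, without overlap (SD, n = 3 each). These ratios use PSMB10 counts without the readthrough gene AC040162.1. With that gene added, the CPM arms of PSMB10 overlapped at 2 weeks, so the 2-week separation of the ratio depends on how reads were divided.

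For the other partners the ratios overlapped at all 3 times. At 2 weeks PSMB8 lay between 2.60% and 4.13% of PSMB5 in the libraries named dmso and between 3.44% and 5.00% in those named actd. PSMB9 then lay between 0.255% and 0.372% of PSMB6 in those named dmso and between 0.364% and 0.485% in those named actd. PSMB8 stood at 4.30% ± 0.676 of PSMB5 in DMSO at 6 h and 4.17% ± 0.499 in actD, and at 72 h at 4.91% ± 2.08 and 6.43% ± 3.54 (SD, n = 3 each). PSMB9 never exceeded 1.22% of PSMB6 in any library, and that maximum was DMSO replicate 3 at 72 h. In the other 17 RNA libraries it was 0.161% to 0.626%. The summed share of the 3 immunosubunits at 72 h was 3.14% to 4.97% in DMSO and 6.33% to 6.91% in actD, so the arms did not overlap. PSMB10, counted without the readthrough gene, was its largest part. At 72 h PSMB10, PSMB8 and PSMB9 had means of 6.88, 2.50 and 0.225 CPM per kilobase in actD and 3.67, 2.68 and 0.282 in DMSO. At 6 h the summed share was 5.24% ± 0.444 in DMSO and 4.80% ± 0.662 in actD, and at 2 weeks 5.15% ± 1.03 in the libraries named dmso and 4.29% ± 0.387 in those named actd (SD, n = 3 each). At both times the actD mean was the lower one and the arms overlapped.

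**Figure D4:**
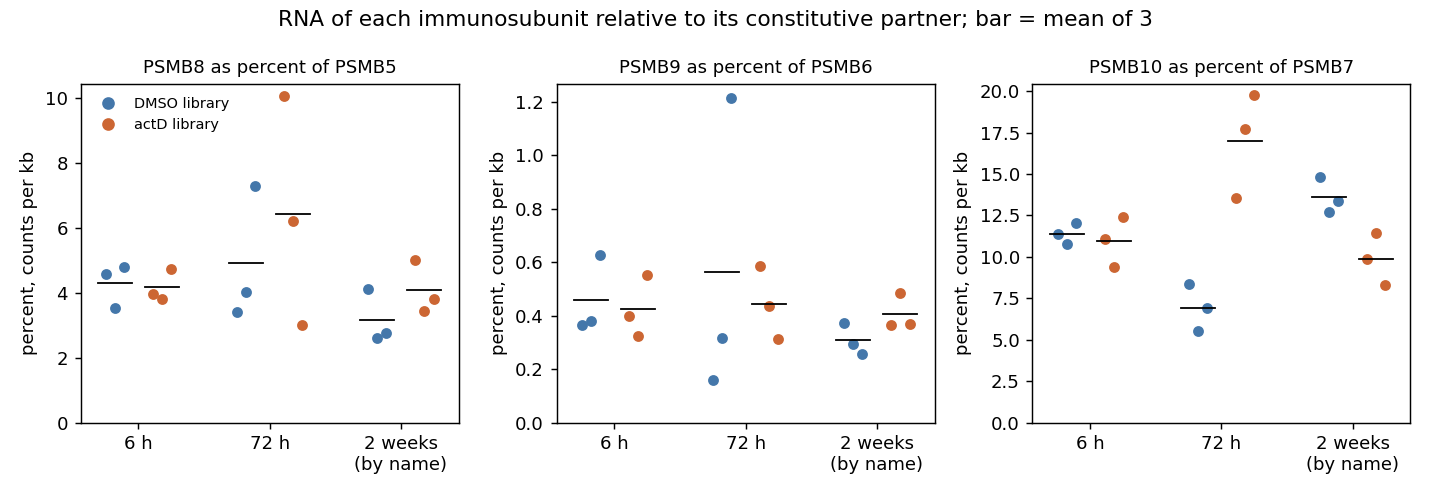
RNA of each immunosubunit as a percent of its constitutive partner, in counts per kilobase, by library, treatment and time; bars are means of 3. PSMB10 relative to PSMB7 is 13.5% to 19.7% in actD and 5.52% to 8.34% in DMSO at 72 h, whereas PSMB8 relative to PSMB5 overlaps between arms at all times.

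The promoters of PSMB8 and PSMB10 are shown because these interferon-inducible genes had fitted RNA values of opposite sign at 2 weeks. At 72 h their signs also differed with all libraries, but not without DMSO replicate 3. They come from the RefSeq table for GRCh38.p14, cover 250 bases before to 50 bases after the start, and are written 5′ to 3′ on the gene's strand. Capitals mark matches, on either strand, to GAAA followed by any 2 bases and GAAA, a core of the interferon-stimulated response element. They also mark TTCNNNGAA, the gamma-activated site of interferon signalling, a pattern that matches both strands at the same place. PSMB10 covers chr16:67936801-67937100 and PSMB8 covers chr6:32843998-32844297, both on the minus strand.
PSMB10: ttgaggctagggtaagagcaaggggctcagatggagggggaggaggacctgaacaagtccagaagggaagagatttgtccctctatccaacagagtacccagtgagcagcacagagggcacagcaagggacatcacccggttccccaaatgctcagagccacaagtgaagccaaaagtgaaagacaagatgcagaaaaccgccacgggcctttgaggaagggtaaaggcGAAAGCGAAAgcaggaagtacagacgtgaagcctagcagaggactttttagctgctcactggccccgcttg
PSMB8: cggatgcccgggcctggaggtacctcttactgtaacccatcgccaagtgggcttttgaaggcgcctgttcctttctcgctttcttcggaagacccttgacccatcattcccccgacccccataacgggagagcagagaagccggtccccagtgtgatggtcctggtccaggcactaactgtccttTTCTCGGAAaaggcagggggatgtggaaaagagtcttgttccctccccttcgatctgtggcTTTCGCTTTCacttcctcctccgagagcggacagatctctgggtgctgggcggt

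The interferon-stimulated core begins 21 bases before the start in PSMB10, on the strand shown, and 4 bases before the start in this PSMB8 promoter, on the opposite strand. The PSMB8 window also holds a gamma-activated site 65 bases before the start. Of 35116 promoters of the same length, 3.57% held the first motif and 7.66% the second. RefSeq entries were matched for 4 of the 6 genes. The other PSMB8 promoter and that of PSMB9 held neither motif, and 1 of 2 PSMB5 promoters held the gamma-activated motif at 2 places, 158 and 15 bases before the start. The antioxidant-type motif TGANNNNGC, related to sites of the factor NFE2L1, was found in the PSMB5, PSMB8 and PSMB9 windows but not in that of PSMB10, and 41.8% of all promoters held it. Such matches are letters in a window and were not tested as binding sites.

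The remaining proteasome genes were read from lists by role. Of the 11 other core subunits, 11 had lower fitted RNA in actD at 72 h, 5 of them with every actD library below every DMSO library, and 0 were called (median log2 difference -0.25, beside 0.02 for all genes tested, coding or not, of which 10.3% had all actD libraries below). Protein-coding genes held 54.3% to 62.4% of RNA counts in the actD libraries at 72 h and 63.2% to 67.6% in the DMSO libraries. At 2 weeks this share was 52.9% to 59.3% in the libraries named actd and 61.1% to 62.5% in those named dmso. The part of this share in the RNA values of these and the other genes was not tested. PSMB4, a structural beta subunit, measured 210, 191 and 198 CPM in actD and 277, 221 and 230 CPM in DMSO (log2 difference -0.28, SE 0.19; edgeR adjusted p = 0.553). PSMB1 differed by -0.33 without overlap and PSMB2 and PSMB3 by -0.17 and -0.09 with overlap (SE 0.18, 0.39 and 0.20; edgeR adjusted p = 0.481, 0.875 and 0.870). Without DMSO replicate 3 PSMB2 and PSMB3 were at -0.43 and -0.20, again with overlap. The smallest p in that list was that of PSMA1, a structural alpha subunit, at -0.49 (SE 0.19; edgeR adjusted p = 0.350).

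Of 19 subunits of the regulatory particle, which recognises and unfolds the substrate, 18 had lower fitted RNA at 72 h, 4 with all actD libraries below, and 0 were called (median log2 difference -0.18). Without DMSO replicate 3 all 19 were lower, 12 with all actD libraries below, beside 18.8% of all genes in that comparison, and 0 were called (median -0.37). PSMD1, its large scaffold, had the smallest p at -1.16 (SE 0.35; edgeR adjusted p = 0.278). POMP, the chaperone that builds new core particles, differed by 0.21 (SE 0.22; edgeR adjusted p = 0.712). PSME1 and PSME2, the subunits of the interferon-induced activator ring, differed by -0.53 and -0.19 (SE 0.29 and 0.18; edgeR adjusted p = 0.482 and 0.676). DMSO replicate 3 held 1.81 times the PSME1 level of the other DMSO libraries, and without it PSME1 was at -0.19. Among 9 assembly chaperones 5 had higher and 4 lower fitted values, with PSMD5 at 0.61 and PSMG2 at -0.27 (SE 0.36 and 0.20; edgeR adjusted p = 0.510 and 0.589). In the activator list 1 of 5 was higher, PSME3 at 0.19, and the lowest p of the rest was that of PSME4 at -0.41 (SE 0.47 and 0.21; edgeR adjusted p = 0.884 and 0.458). PSME3 was at -0.02 without DMSO replicate 3, and 0 of 5 were then higher. With all libraries, PSMB10 was the 1 gene of these 11 and the 6 catalytic subunits with a higher fitted value at 72 h, and PSMB8 and PSMB9 joined it without DMSO replicate 3. At 6 h the 11 other core genes had a median log2 difference of 0.04, and at 2 weeks of 0.10, with 0 called at either time.

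NFE2L1, the transcription factor that restores proteasome genes when the enzyme is inhibited, had overlapping arms at 72 h in RNA (log2 difference -0.08, SE 0.23; edgeR adjusted p = 0.905). In the 2-week libraries named actd it measured 184, 212 and 204 CPM against 167, 144 and 141 CPM (0.41, SE 0.12; unadjusted p = 0.0101, edgeR adjusted p = 0.449). The arms did not overlap. In its list of 4 genes, VCP, the segregase that extracts NFE2L1 from the endoplasmic reticulum, had the smallest p in RNA at 72 h at -1.46 (SE 0.42; edgeR adjusted p = 0.276) and DDI2, the protease that activates NFE2L1, stood at 0.12 (SE 0.18; edgeR adjusted p = 0.804). The values without DMSO replicate 3 were 0.03 for DDI2, -0.13 for NFE2L1 and -1.81 for VCP.

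Immunoproteasomes help to make the peptides that the class I antigen processing genes load and present. At 72 h 7 of 12 genes were higher and 5 lower in actD with 0 called (median log2 difference 0.10). Without DMSO replicate 3 11 of 12 were higher, 6 with every actD library above both remaining DMSO libraries, and 0 were called (median 0.36, beside 0.06 for all genes). That library was the highest for 7 of these 12 genes, so leaving it out raises their differences by construction. The rise is no separate support for an effect of actD, and the list was not counted without any other library. Of all genes in that comparison 19.6% had every actD library above, and 38.4% did not overlap in either direction. TAP1 differed by 0.56 (SE 0.37; edgeR adjusted p = 0.553) with that library and by 1.04 (SE 0.25; edgeR adjusted p = 0.167) without it. B2M was at -0.12 (SE 0.33) and 0.30 (SE 0.23), and TAP2 at 0.15 (SE 0.20) and 0.30 (SE 0.17). HLA-C had the smallest p among the higher genes at 0.45 (SE 0.26; edgeR adjusted p = 0.4996), and 0.72 without that library. NLRC5, the class I transactivator, stood at -0.74 (SE 0.54; edgeR adjusted p = 0.588) and at -0.10 without that library.

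At 2 weeks 12 of 12 class I genes had a higher fitted value in the libraries named actd (median log2 difference 0.30, 0 called). For 8 of them every library named actd was above every library named dmso, beside 7.86% of all genes. TAP2 measured 20.7, 20.6 and 21.4 CPM against 15.8, 16.9 and 14.0 CPM (0.43, SE 0.12; edgeR adjusted p = 0.425). TAP1 and B2M differed by 0.31 and 0.29 (SE 0.14 and 0.11; edgeR adjusted p = 0.564 and 0.512), both without overlap. Of the 18 interferon genes 8 were higher and 10 lower with 0 called, with IRF1 at -0.26 (SE 0.18; edgeR adjusted p = 0.705). At 72 h IRF1 was at -0.12 (SE 0.36; edgeR adjusted p = 0.907), and at 0.32 without DMSO replicate 3 (SE 0.27; edgeR adjusted p = 0.581). Of the 17 interferon genes tested at 72 h 5 were higher and 12 lower with 0 called, and without that library 8 were higher and 9 lower. ISG15, a ubiquitin-like protein, was at 0.65 and JAK1, a receptor kinase, at -0.95 (SE 0.21 and 0.25; edgeR adjusted p = 0.298 and 0.265), both without overlap.

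Footprints could be read for 2 of the 6 members. PSMB5 had counts in all 18 footprint libraries and PSMB6 in 13 of 18. PSMB7 and PSMB10 were listed at 0 in all 18, PSMB8 had 1 count in 1 library, and PSMB9 had 2 counts in each of 2 libraries, the last 2 genes only in actD at 72 h. A value of 0 in this file is not read as absence of translation: of protein-coding genes with at least the RNA level of PSMB7, 6.08% at 6 h, 6.07% at 72 h and 2.37% at 2 weeks were also listed at 0 in all 6 footprint libraries of that time. At 0 in all 18 libraries, like PSMB7, were 19 of 1268 such genes (1.5%). Such zeros also came and went between replicates. PSMB1 held 219, 93 and 270 footprint counts in actD and 0, 77 and 0 in DMSO at 72 h, and POMP was listed at 0 in all 6. No footprint level or fold is therefore given for the 4 members.

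At 72 h the footprints of PSMB5 and PSMB6 had higher fitted values in actD, without a call. PSMB5 held 163, 103 and 297 counts in actD and 72, 65 and 7 in DMSO, or 243, 280 and 353 CPM against 163, 218 and 87.1 CPM. Every actD library was above every DMSO library, and the lowest value came from DMSO replicate 3, which had 26831 protein-coding counts in all. The log2 difference was 0.87 (SE 0.44; edgeR adjusted p = 0.240). PSMB6 held 24, 13 and 37 counts in actD and 8, 7 and 0 in DMSO, or 35.8, 35.3 and 44.0 CPM against 18.1 and 23.5 CPM with the remaining library listed at 0. Again no libraries overlapped (log2 difference 1.12, SE 0.47; unadjusted p = 0.0439, edgeR adjusted p = 0.173). Without DMSO replicate 3, the shallowest library, the log2 differences were 0.66 for PSMB5 and 0.94 for PSMB6 (edgeR adjusted p = 0.270 and 0.141).

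Neither was called, beside 3.79% of 2426 genes at 72 h, and DESeq2 called 0 of the 2. Both had arms that did not overlap, beside 35.7% of all genes at that time. The protein-coding share of the actD libraries was 30.7% to 40.4% and that of the DMSO libraries 17.6% to 38.4%, and the part of this share in the result was not tested. At 6 h PSMB5 measured 31.0, 37.1 and 74.2 CPM in actD and 43.9, 35.1 and 26.2 CPM in DMSO (log2 difference 0.42, SE 0.46; edgeR adjusted p = 0.889). At 2 weeks it measured 25.1, 51.3 and 53.9 CPM in actD and 13.9, 22.5 and 51.3 CPM in DMSO (0.57, SE 0.53; edgeR adjusted p = 0.727). The arms overlapped at both times, where 0% of 1212 and 0% of 1598 genes were called and 9.41% and 14.9% did not overlap. PSMB6 did not pass the filter on low counts at 6 h, with 0, 0 and 5 counts in actD and 9, 4 and 0 in DMSO, or at 2 weeks, with 5, 9 and 4 counts against 0, 5 and 7.

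**Figure D5:**
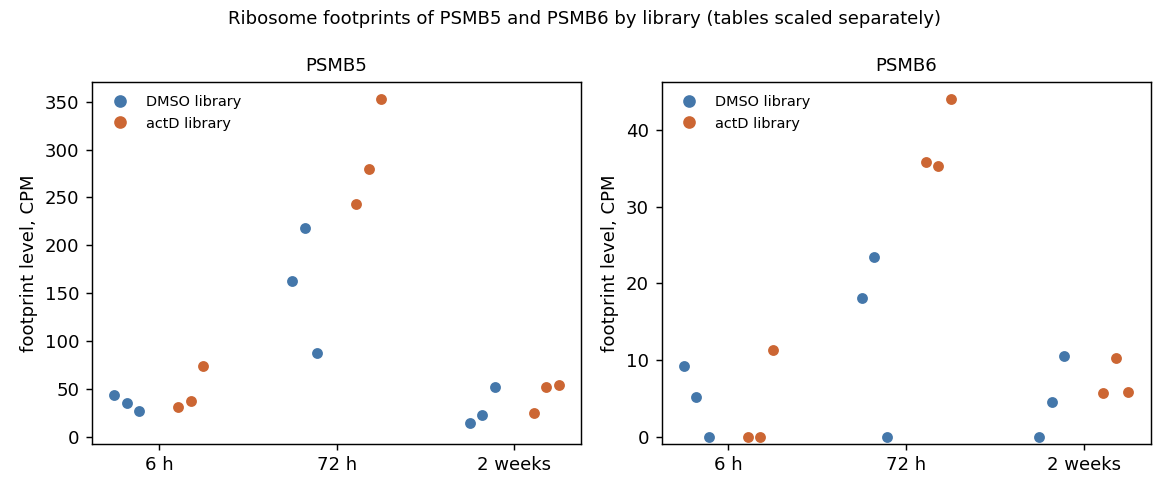
Ribosome footprints of PSMB5 and PSMB6 in CPM by library, treatment and time, each point 1 library; levels are comparable only within a time. At 72 h the actD libraries lie above the DMSO libraries for both genes, at 243 to 353 CPM for PSMB5 and 35.3 to 44.0 CPM for PSMB6.

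Translational efficiency, the footprint difference of a gene relative to its RNA difference, was tested as an interaction over the 12 libraries of a time. At 72 h it was 1.05 on the log2 scale for PSMB5 (SE 0.46; unadjusted p = 0.0405, edgeR adjusted p = 0.303) and 1.14 for PSMB6 (SE 0.46; unadjusted p = 0.0287, edgeR adjusted p = 0.270). Neither was called, beside 0.433% of 2311 genes, and DESeq2 called neither. PSMB6 entered this fit too through its actD footprints, so its value is not independent of the filter. PSMB5 had 0.31 at 6 h and 0.51 at 2 weeks (SE 0.31 and 0.57; edgeR adjusted p = 0.941 and 0.948), where 0% of 951 and 0% of 1441 genes were called.

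Footprints of the related genes were read at 72 h. Of 7 other core subunits that passed the filter 6 had higher fitted values and 1 lower, with 0 called (median log2 difference 0.30). PSMA3, a structural alpha subunit, had the smallest p at 0.93 and PSMA1 stood at -0.51 (SE 0.51 and 0.68; edgeR adjusted p = 0.263 and 0.656). PSMB4 was at 0.55 and PSME2 at 1.08 (SE 0.43 and 0.41; edgeR adjusted p = 0.422 and 0.138), the latter without overlap. In the regulatory particle 7 of 11 were higher, with PSMC4, an unfolding ATPase, at 1.24 and PSMD1 at -1.21 (SE 0.62 and 0.45; edgeR adjusted p = 0.230 and 0.137). Of 12 class I genes 6 passed the filter at 72 h, beside 0 at 6 h and 1 at 2 weeks. All 6 class I genes that passed were higher with 0 called, among them HLA-C at 1.78 and B2M at 3.57 (SE 0.45 and 1.33; edgeR adjusted p = 0.0686 and 0.136). The filter keeps a gene that is high in 1 arm only, and the arm through which each listed gene passed was not examined. The shared direction is therefore not read as a result. HLA-C and B2M were not refitted without DMSO replicate 3.

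VCP was the 1 gene of the lists that was called in footprints. Its footprints held 21, 5 and 19 counts in actD and 94, 65 and 4 in DMSO at 72 h, or 31.4, 13.6 and 22.6 CPM against 213, 218 and 49.7 CPM. They fell by 2.86 in log2 units, with an SE of 0.57 and an edgeR adjusted p of 0.0473, and all actD libraries were below all DMSO libraries. The call was lost without any 1 of the 6 libraries except DMSO replicate 3, with values from -3.17 to -2.57 and edgeR adjusted p-values from 0.0403 to 0.228. DESeq2 gave an adjusted p of 0.00365. NFE2L1 itself was at 0.00 (SE 0.48; edgeR adjusted p = 0.998).

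Whether the effect differed between times was tested directly where the labels allow it. For PSMB10 RNA the effect at 72 h exceeded that at 6 h by 0.97 log2 units (SE 0.36; unadjusted p = 0.0181, edgeR adjusted p = 0.538). For PSMB5, PSMB6 and PSMB7 it was lower by -0.42, -0.41 and -0.36 (SE 0.32, 0.26 and 0.24; edgeR adjusted p = 0.780, 0.719 and 0.744). PSMB8 and PSMB9 gave -0.14 and -0.53 (SE 0.42 and 0.74), and 0.21 and 0.42 without DMSO replicate 3 at 72 h. By edgeR 0 of 6 were called, beside 0.0165% of 24251 genes, 1 of the 6 had an unadjusted p under 0.05, and DESeq2 called 0. In footprints the effect at 72 h exceeded that at 6 h by 0.56 for PSMB5 and 1.78 for PSMB6 (SE 0.65 and 1.39; edgeR adjusted p = 0.913 and 0.823). At 2 weeks it was -0.34 and -0.63 relative to 72 h (SE 0.72 and 0.99; edgeR adjusted p = 0.951 and 0.922). Calls covered 0% of 3012 and 0.0532% of 3760 genes in these comparisons, and the 72 h libraries enter both.

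As a description of likeness, log2 CPM centred within each table was compared over the 18 RNA libraries, which come from 3 tables of 6 and differ in depth. The constitutive subunits had positive Pearson r with each other, at 0.72 for PSMB6 and PSMB7, 0.57 for PSMB5 and PSMB6 and 0.53 for PSMB5 and PSMB7. Without the 2 libraries farthest from the median of the first-named gene, r was 0.65 for PSMB6 and PSMB7, 0.32 for PSMB6 and PSMB5 and 0.47 for PSMB7 and PSMB5. PSMB8 and PSMB9 had r of 0.71, while PSMB10 had -0.33 with PSMB8 (Spearman's rho -0.011), -0.30 with PSMB9 and -0.21 with PSMB7. B2M had r of 0.78 with PSMB8, 0.81 with PSMB9 and -0.27 with PSMB10. Without the 2 libraries farthest from the immunosubunit's median these were 0.63, 0.58 and -0.53. With the libraries left out in the same way, PSMB9 had 0.545 with PSMB8, and PSMB10 had -0.30 with PSMB8, -0.38 with PSMB9 and 0.03 with PSMB7. Among 19404 genes those most like PSMB5 were RAB2A, POLR2I and IDH3B (r 0.85, 0.79 and 0.79, but 0.67, 0.61 and 0.66 without the 2 libraries farthest from the PSMB5 median), and those most like PSMB6 were NDUFA8, YWHAG and MAPRE1 (0.91, 0.88 and 0.86). For PSMB7 they were RABEPK, COX5A and YWHAG (0.91, 0.90 and 0.90), and for PSMB8 they were FXYD5, ZDHHC24 and GM2A (0.94, 0.91 and 0.90). PSMB9 was most like BGN, MAN2B1 and ADA (0.89, 0.89 and 0.88), and PSMB10 was most like MRPL52, LINC01597 and AC007744.1 (0.86, 0.86 and 0.84). Without the 2 libraries farthest from each member's median, r was 0.774, 0.75 and 0.756 for PSMB9 and 0.802, 0.743 and 0.725 for PSMB10. For PSMB6, PSMB7 and PSMB8 it then lay between 0.747 and 0.903. YWHAG appeared beside both PSMB6 and PSMB7, and the immunosubunits shared no gene among their nearest 3.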

How the data were processed

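RNA and ribosome footprints of WiT49 cells were analysed from estimated counts per gene, as deposited by the authors in 1 table per assay and time (36 columns, 1 per library, and 0 columns of other samples). Values were whole numbers. The submitters' processing notes name HISAT2, StringTie and hg38, while versions, annotation, strand and the treatment of reads with several matches are not given in the sources used here. Gene names, types and exon lengths came from GENCODE release 29 by Ensembl identifier.

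Each comparison was fitted over all genes of its tables by quasi-likelihood in edgeR 4.0.16 under R 4.3.3, with TMM scaling, the filterByExpr minimum count of 10 and Benjamini-Hochberg adjustment at 0.05. CPM uses TMM-scaled library sizes. Translational efficiency is the interaction of assay and treatment, and differences between times are interactions of time and treatment; 2-week RNA was left out of the latter because its labels conflict. DESeq2 1.42.0, library totals, no filter, a replicate block, a fit over all times, titles in place of library names and each library left out were alternatives. The fits were tested on simulated data. Replicates differed by more than sampling noise, with a chi-square per degree of freedom of at least 7.39. In RNA at 72 h it was 252 and 355 between DMSO replicate 3 and the other DMSO libraries, and 109 between those others. DMSO replicate 3 was also the deepest of them.

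Members and gene lists were chosen with earlier results of these data known. The 6 members are always given. PSMB1 to PSMB4, POMP, PSME1, PSME2, NFE2L1, TAP1, TAP2, NLRC5, IRF1 and B2M are given with their lists, as are each list's called genes and its smallest p in each direction at 72 h. The 3 genes most like each member are those of highest Pearson r, with a prior count of 2. HLA-B, PTPRC, PSMB8-AS1 and AC040162.1 were named after their values were seen. Some genes of the lists are not reported here.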

Additional observations from a re-analysis of the deposited data

Results flagged for a closer look

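PSMB10 RNA had opposite directions at 72 h and at 2 weeks, in each case with every library of one arm on one side of the other arm. The log2 difference, actD minus DMSO, was 0.91 at 72 h, and -0.39 at 2 weeks for the libraries named actd minus those named dmso. Neither passed edgeR's adjusted threshold, and the difference between the times was not tested because titles and library names conflict at 2 weeks. Taken by titles, the 2-week value is 0.39 and has the same sign as that at 72 h. With the readthrough gene AC040162.1 added, the 2-week value is -0.11 with overlapping arms.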

How the results depend on the processing

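Titles and library names conflict for 2-week RNA, footprint depth was low, zeros in the footprint tables were unreliable, and PSMB10 shares reads with a readthrough gene, whose addition was chosen after seeing the data. The replicate numbers were not shown to pair the libraries, and the replicate block called 0 members in each comparison. The all-times fit called 1 member at 72 h in RNA, PSMB10, beside 4.89% of 24803 genes. Of 476 alternatives to the 36 log2 values of members, 441 kept direction and side of the threshold and 34 changed direction, none of these with an adjusted p under 0.05. By titles the 2-week RNA values were 0.00729 for PSMB5, -0.17 for PSMB6, -0.080 for PSMB7, -0.40 for PSMB8, -0.61 for PSMB9 and 0.39 for PSMB10. PSMB5 at 2 weeks turned to 0.0040 with DESeq2, 0.032 with the replicate block and 0.015 with all times in 1 fit. With library totals PSMB7 at 2 weeks turned to -0.073 and PSMB5 footprints at 6 h to -0.24, where that scaling moved the median of all genes by -0.175 and -0.61. Leaving out 1 library at a time changed direction within these ranges. At 6 h they were -0.080 to 0.19 for PSMB5, -0.15 to 0.041 for PSMB7, -0.094 to 0.18 for PSMB8, -0.23 to 0.37 for PSMB9 and -0.30 to 0.051 for PSMB10, and -0.040 to 0.60 for PSMB5 footprints. At 72 h they were -0.26 to 0.25 for PSMB8 and -0.72 to 0.60 for PSMB9, and at 2 weeks -0.25 to 0.17 for PSMB5. For RNA at 72 h against 6 h they were -0.30 to 0.21 for PSMB8 and -0.90 to 0.42 for PSMB9. For footprints at 2 weeks against 72 h they were -0.67 to 0.25 for PSMB5 and -1.13 to 0.16 for PSMB6, turned by 2-week DMSO replicate 3. Over all genes, DESeq2 called 204, 605 and 197 in RNA at 6 h, 72 h and 2 weeks, 12 in footprints at 6 h, and 1, 59 and 1 for translational efficiency. For differences between times it called 175 in RNA, and 3 and 12 in footprints. The all-times fit called 1, 1212 and 0 genes in RNA and 1 in footprints at 6 h. Footprint calls without a filter were 16, 321 and 11, and library totals gave 7 at 72 h and 6 in RNA at 2 weeks. Leaving out 1 library gave 0 to 6, 0 to 3 and 2 to 10 calls in RNA, 0 to 282 in footprints at 72 h, 7 to 41 for translational efficiency at 72 h and 1 to 55 for RNA at 72 h against 6 h. Translational efficiency at 2 weeks by titles gave 27, and with TMM over 12 libraries at 72 h 16. Footprints at 2 weeks against 72 h gave 1 with library totals or no filter and 0 to 6 with 1 library left out. VCP footprints lost their call with library totals, the replicate block and all times in 1 fit (adjusted p = 0.231, 0.142 and 0.0754).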
